A study of Mus musculus with 5 samples.

Results

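The genes of the unfolded protein response and of its amino acid arm under ATF4 were compared between murine lung cancer-associated fibroblasts (CAFs) with and without overexpression of miR-200. The set holds 36 genes named by symbol for their known roles, of the 21835 genes in the table of normalized values, and all 36 were found in it. They fall into 14 endoplasmic reticulum (ER) chaperones and folding enzymes, 4 genes of ER-associated degradation, 6 stress sensors and transcription factors, 4 stress targets of ATF4 and CHOP, and 8 enzymes of amino acid synthesis. The control cells (CAF-vec, 2 samples) carried the vector alone and are labelled WT control. The other cells (CAF-200, 3 samples) carried the cluster that encodes miR-200b, miR-200a and also miR-429 in a lentiviral vector and are labelled miR-200 overexpression. Both were cultured lung CAFs, and the protocols name no agent that stresses the ER. The labels place the introduction in CAFs, with a neomycin vector and G418 selection. The study's methods instead name a hygromycin vector and place its introduction in normal lung fibroblasts, although the study's results describe CAFs. Which vector and which account of the cells apply to these libraries is not known. Neither the labels nor the methods say whether the cells were clones or whether the samples of a group were separate cultures, so *p* values measure only the spread between these samples. The methods name RNA in triplicate, and 2 CAF-vec samples were analysed here.

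Fibroblasts secrete collagens and other matrix proteins, which are folded and modified in the ER. When unfolded proteins build up there, 3 sensors in the ER membrane respond. IRE1 (*Ern1*) splices *Xbp1* mRNA, PERK (*Eif2ak3*) phosphorylates the translation factor eIF2 so that ATF4 is made from mRNA already present, and ATF6 is cut in the Golgi to release a transcription factor. XBP1 and ATF6 raise chaperone and degradation genes, whereas ATF4 raises amino acid synthesis and transport genes and, with CHOP (*Ddit3*), stress genes. Splicing of *Xbp1*, translation of *Atf4* and cleavage of ATF6 are not visible in values per gene, which give mRNA levels.

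The introduced miRNAs are shown because their seeds, bases 2 to 8 and here in capitals, decide which mRNAs they can pair with. The sequences are those of RefSeq on GRCm38.p6, from the minus strand of chromosome 4 between positions 156053916 and 156055706.
miR-200b-3p: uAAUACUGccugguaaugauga
miR-429-3p: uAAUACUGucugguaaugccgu
miR-200a-3p: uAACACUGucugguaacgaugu
miR-200b and miR-429 share a seed, which pairs with CAGTATT in a 3′-UTR, and the seed of miR-200a pairs with CAGTGTT. The miRNAs themselves are not measured in the mRNA libraries. *Zeb1*, a known miR-200 target whose level checks the labels, was at 43.5 and 50.7 CPM in CAF-vec and 37.8, 37.5 and 34.1 CPM in CAF-200, which did not pass the test (adjusted *p* = 0.0504 by limma, at a log2 fold-change of -0.36). *Zeb2*, another target, was at 46.2 and 29.8 CPM in CAF-vec and 31.9, 31.8 and 31.1 CPM in CAF-200 (adjusted *p* = 0.374). For *Zeb1* the groups did not overlap, and for *Zeb2* CAF-200 lay between the CAF-vec samples.

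The mRNA values are in CPM, read counts scaled by the authors to a common total per sample, and were compared on log2(CPM + 0.5) with limma for the 12175 genes that reached 0.5 CPM in at least 2 samples. A gene is said to have risen or fallen in CAF-200 where the *p* value adjusted over all genes tested (Benjamini-Hochberg) was under 0.05. A stricter count uses the study's thresholds, an adjusted *p* under 0.01 with a log2 fold-change beyond 1. The depth of the samples is unknown. The commonest low value was larger in CAF-vec 1 (0.0186 CPM) than in CAF-vec 2 (0.00975 CPM). It was 0.0102, 0.0105 and 0.0105 CPM in the CAF-200 samples. Only 10.2% to 35.5% of values lay near whole multiples of it, so it does not give the depth. Whether CAF-vec 1 was read less deeply was not tested. Over the genes tested, the log2 difference of CAF-vec 1 and CAF-vec 2 had an SD of 0.49, against 0.19 to 0.20 for any pair from CAF-200. The 8 fibroblast markers were all present, with *Dcn* and *Thy1* higher in CAF-200 and a summed level of 7450 to 14100 CPM in CAF-vec against 6580 to 7280 CPM in CAF-200. All 6 epithelial markers were under 0.5 CPM in every sample, *Krt18* and *Sftpc* at 0, and summed to at most 0.421 CPM. The 5 endothelial markers summed to at most 0.857 CPM, with *Tie1* and *Emcn* at 0. The 5 leukocyte markers summed to 8.34 to 9.31 CPM in CAF-vec against 12.2 to 12.8 CPM in CAF-200, where 1 of them, *Lyz2*, rose, while *Adgre1* was at 0 in every sample and *Ptprc* under 0.5 CPM. Most of the CAF-vec sum came from *Cd68* (2.25 and 5.01 CPM) and *Csf1r* (4.97 and 2.31 CPM). Both were detected in every sample, overlapped between the groups and did not pass the test (log2 fold-changes -0.14 and -0.46). The 4 mural markers summed to 8.56 to 11.8 CPM in CAF-vec against 7.51 to 7.94 CPM in CAF-200. The part of these cell types in the results was not tested, and fewer cells of a type cannot be told apart from less RNA per cell in bulk samples.

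All 36 genes passed the filter on low values, and the set moved in both directions. In CAF-200, 9 genes fell (*Xbp1*, *Eif2ak3*, *Ddit3*, *Hspa5*, *Sdf2l1*, *Syvn1*, *Chac1*, *Vldlr* and *Aldh18a1*), 4 rose (*Mthfd2*, *Asns*, *Pdia4* and *Dnajb9*) and 23 did not pass the test. The share that passed was 36.1%, against 30.5% of all genes tested, the share that fell 25% against 18.6%, and the share that rose 11.1% against 11.9%, so these counts stand near the background. At the study's thresholds 1 gene, *Vldlr*, was lower and 0 were higher by limma, against 2.35% and 2.37% of all genes tested (4.72% in all). The groups did not overlap for 22 genes (61.1%, against 61.6% of all genes tested), of which 15 were lower in CAF-200 (37.3% of all genes tested were) and 7 higher (24.3%). The median log2 fold-change was -0.18 over the 36 genes and -0.094 over all genes tested, and the range was -1.27 to 0.93. That order rested on CAF-vec 1, since without it the medians were -0.0072 for the 36 genes and -0.060 for all genes tested. Without CAF-vec 2 they were -0.30 and -0.12. Quantile normalization gave -0.11 for the 36 genes against -0.016, and centring gave -0.079 against 0.0027. After quantile normalization or centring on each sample's median, 7 fell and 6 rose.

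**Figure D1:**
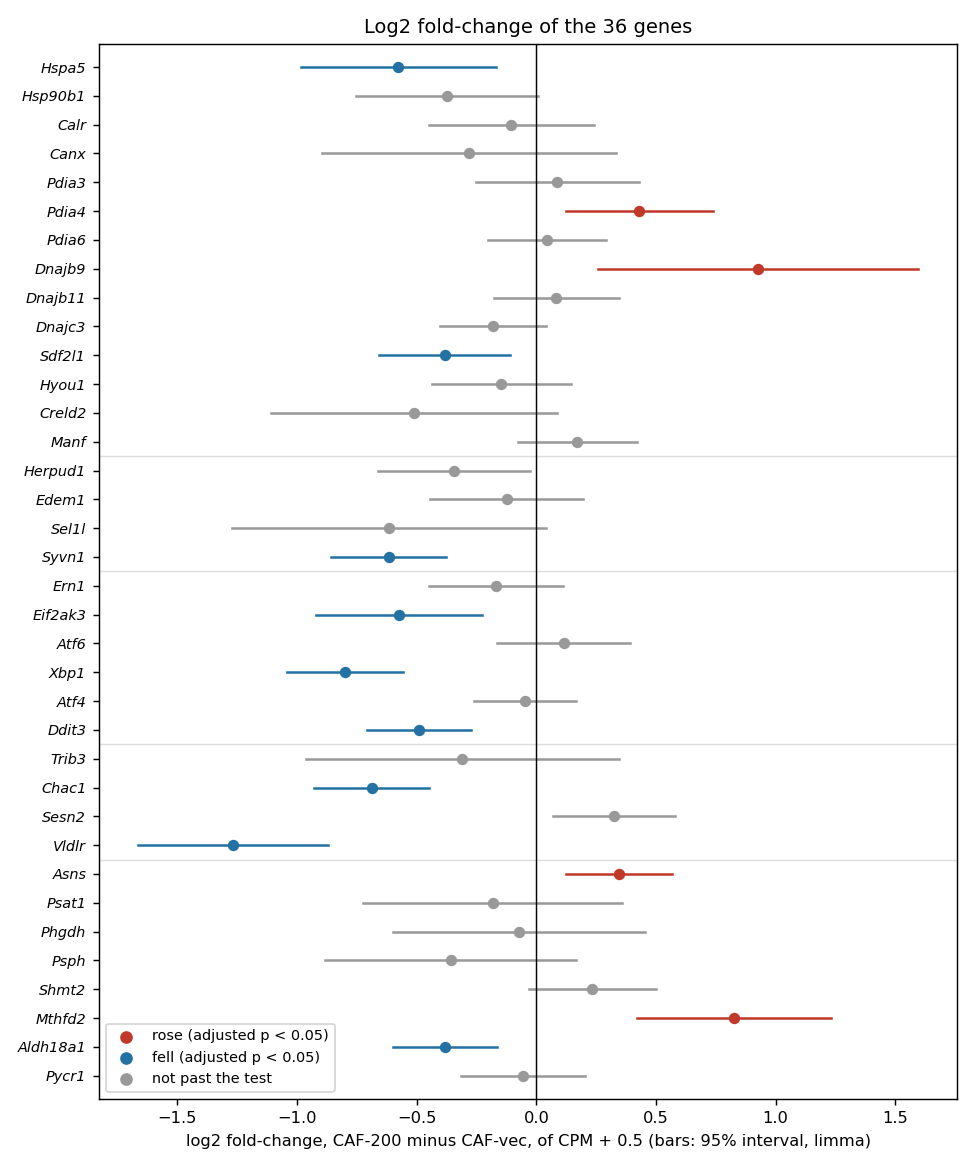
Log2 fold-change of each of the 36 genes (x axis, CAF-200 minus CAF-vec, of CPM + 0.5), with the gene on the y axis, points for estimates and bars for 95% intervals from limma. Grey lines separate the 5 roles, from chaperones at the top to amino acid synthesis at the bottom, and the 9 genes that fell (blue) occur in all 5 roles while the 4 that rose (red) are chaperones or amino acid enzymes, with *Vldlr* farthest to the left at -1.27.

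The counts rest on few samples. With CAF-200 replicate 1, 2 or 3 left out, 4, 3 and 2 of the genes fell and 0 rose in each case by limma, against 7, 10 and 8 lower and 2, 4 and 4 higher at an unadjusted *p* under 0.05. Without CAF-vec replicate 2, when the remaining CAF-vec sample is assumed to vary like the CAF-200 samples, 22 fell and 7 rose, and without CAF-vec replicate 1, 10 fell and 8 rose. *Xbp1* and *Vldlr* were the 2 genes called in each of the 14 alternatives run.

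Among the 6 sensors and transcription factors, *Xbp1*, *Eif2ak3* and *Ddit3* fell (50%, against 18.6% of all genes tested) while *Atf4*, *Atf6* and *Ern1* did not pass the test. *Xbp1* (ENSMUSG00000020484, chromosome 11 of GRCm38, 5520659 to 5525893) encodes the transcription factor of the IRE1 arm. It was at 97.4 and 85.2 CPM in CAF-vec and at 54.2, 52.4 and 49.8 CPM in CAF-200. All CAF-200 samples were well below both CAF-vec samples, a mean of 91.3 ± 8.69 CPM (SD, n = 2) against 52.2 ± 2.23 CPM (SD, n = 3), for a log2 fold-change of -0.80 (standard error, SE, 0.0981, adjusted *p* = 0.00532, limma). Its kinase and RNase *Ern1*, which splices *Xbp1* mRNA, was at 16.9 and 14.1 CPM in CAF-vec and 13.4, 13.3 and 14.4 CPM in CAF-200. The *Ern1* groups overlapped (log2 fold-change -0.17, 95% interval -0.45 to 0.11, adjusted *p* = 0.292).

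*Eif2ak3*, which encodes the eIF2 kinase PERK, was at 22.7 and 17.0 CPM in CAF-vec and 13.3, 12.8 and 12.9 CPM in CAF-200. The CAF-200 values were close together below both CAF-vec values, which differed from each other (log2 fold-change -0.57, SE 0.140, adjusted *p* = 0.03). *Atf4*, the transcription factor made when eIF2 is phosphorylated, was at 258 and 259 CPM in CAF-vec and 258, 242 and 249 CPM in CAF-200. One CAF-200 sample was level with the CAF-vec samples, and the difference was small (log2 fold-change -0.05, 95% interval -0.26 to 0.17, adjusted *p* = 0.687). *Ddit3*, which encodes CHOP, a pro-apoptotic factor below ATF4, was at 124 and 138 CPM in CAF-vec and 93.1, 92.9 and 93.3 CPM in CAF-200. Its CAF-200 values were nearly identical and below both CAF-vec values (log2 fold-change -0.49, SE 0.0877, adjusted *p* = 0.0129). In the annotation its exons overlap a further entry of the same name on the same strand and *Mars* on the other, so reads could be split. *Atf6* was at 40.0 and 48.3 CPM in CAF-vec and 47.0, 45.6 and 50.4 CPM in CAF-200, and the groups overlapped (log2 fold-change 0.11, 95% interval -0.16 to 0.39, adjusted *p* = 0.465). *Ddit3* did not pass the test after quantile normalization. With any CAF-200 sample left out, the adjusted *p* was 0.0955 to 0.115 for *Eif2ak3* and 0.0732 to 0.0768 for *Ddit3*, at nearly the same log2 fold-changes.

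**Figure D2:**
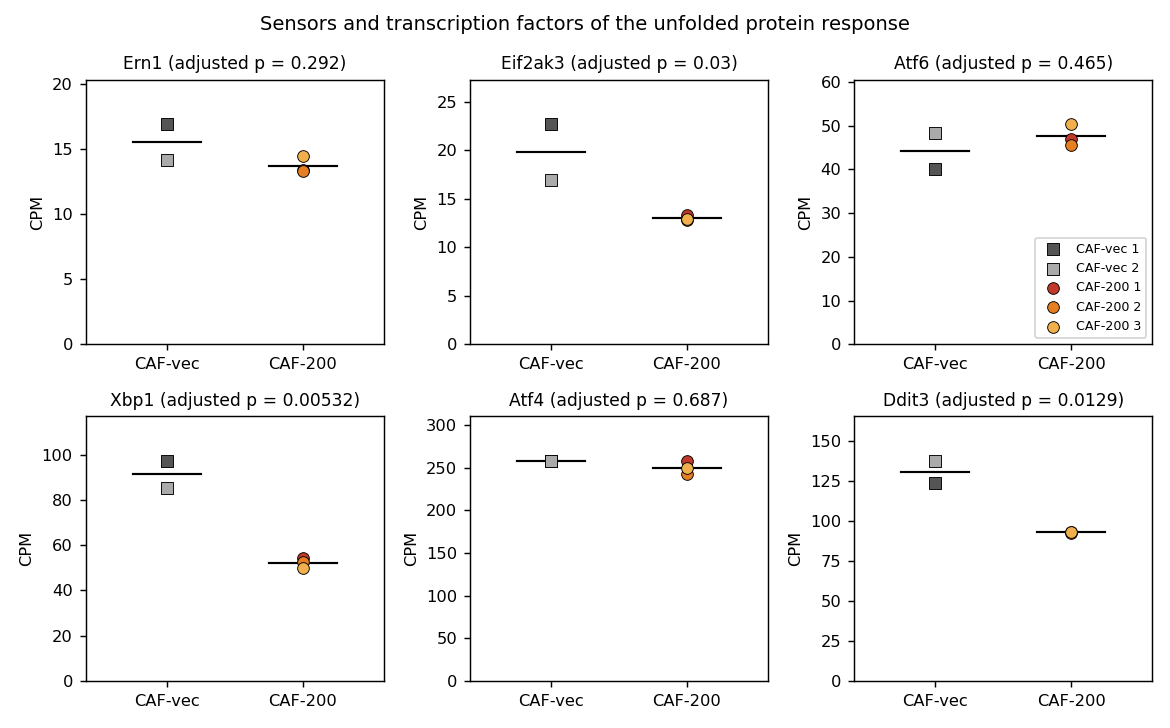
CPM in each sample (y axes, from 0) for the 6 sensors and transcription factors, with CAF-vec samples as squares, CAF-200 samples as circles and bars at the group means. *Xbp1*, *Eif2ak3* and *Ddit3* lie lower in all 3 CAF-200 samples, while *Atf4* stays between 242 and 259 CPM in all 5.

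Of the 14 chaperones and folding enzymes, 2 fell and 2 rose (14.3% each, against 18.6% and 11.9% of all genes tested) and 10 did not pass the test. *Hspa5* (ENSMUSG00000026864, chromosome 2, 34771970 to 34777547) encodes BiP, the main ER chaperone and the protein that holds the sensors inactive. It was at 995 and 706 CPM in CAF-vec and 548, 569 and 568 CPM in CAF-200. No CAF-200 sample reached the lower CAF-vec sample, but the CAF-vec samples were far apart, and the log2 fold-change of -0.58 (SE 0.165, adjusted *p* = 0.0462, limma) was -0.82 against CAF-vec 1 and -0.33 against CAF-vec 2. *Hsp90b1*, which encodes GRP94, was at 1767 and 1346 CPM in CAF-vec and 1233, 1167 and 1174 CPM in CAF-200 and did not pass the test (adjusted *p* = 0.116, at a log2 fold-change of -0.37). *Sdf2l1*, a partner of the BiP cycle, fell from 39.4 and 33.4 CPM to 26.3, 29.7 and 27.2 CPM (adjusted *p* = 0.0487, at a log2 fold-change of -0.38).

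In the other direction, *Pdia4*, a protein disulfide isomerase, was at 234 and 186 CPM in CAF-vec and 292, 274 and 279 CPM in CAF-200. All of its CAF-200 values were above both CAF-vec values (log2 fold-change 0.43, SE 0.124, adjusted *p* = 0.048). *Dnajb9*, a BiP co-chaperone that represses IRE1 and is a known XBP1 target, was at 9.29 and 18.1 CPM in CAF-vec and 22.9, 25.6 and 27.2 CPM in CAF-200. It was higher in every CAF-200 sample, and the CAF-vec samples differed by about as much as the groups (log2 fold-change 0.93, SE 0.271, adjusted *p* = 0.0497). These 4 calls lie close to the threshold, and each was lost in 7 to 9 of the 14 alternatives, including those without CAF-200 replicate 1, 2 or 3, where the adjusted *p* was 0.107 to 0.168 over the 4 genes.

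The lectin chaperones *Calr* and *Canx*, which hold glycoproteins until they fold, overlapped between the groups. *Canx* was at 729 CPM in CAF-vec 1 and 404 CPM in CAF-vec 2, with 468, 434 and 438 CPM in CAF-200 between them (adjusted *p* = 0.413, at a log2 fold-change of -0.28). The disulfide isomerases *Pdia3* and *Pdia6* had log2 fold-changes of 0.09 and 0.04, with 95% intervals from -0.25 to 0.43 and from -0.20 to 0.29. *Creld2*, a secreted stress-induced isomerase, stood at 84.6 CPM in CAF-vec 1 against 46.8 CPM in CAF-vec 2 and 45.6, 43.5 and 43.0 CPM in CAF-200, so that its log2 fold-change of -0.51 (adjusted *p* = 0.155, limma) was -0.94 against CAF-vec 1 and -0.09 against CAF-vec 2. *Manf*, a neurotrophic factor kept in the ER, was 223 and 241 CPM in CAF-vec and 244, 276 and 264 CPM in CAF-200 (adjusted *p* = 0.236, at a log2 fold-change of 0.17). The co-chaperones *Dnajb11* and *Dnajc3* and the nucleotide exchange factor *Hyou1* had log2 fold-changes from -0.18 to 0.08 and did not pass the test.

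Because ATF6 and XBP1 act through the ER stress response element (ERSE), CCAAT and CCACG with 9 bases between them, the promoters of the members (250 bases before to 50 after the start, RefSeq, GRCm38.p6) were searched on both strands. RefSeq starts can differ from the gene starts given elsewhere, which are those of GENCODE. A promoter was held for 33 of the 36 genes, and 8 of these had a match, against 0.137% of 27025 genes. The members were chosen as ER stress genes, so nothing is read from that excess. The windows that carry the match in the 2 of these genes that fell and in 2 that did not are printed 5′ to 3′ on the strand of the gene, with the match in capitals.
*Hspa5* (chr2:34772020-34772049, plus strand): cttcaCCAATCGGAGGCCTCCACGacgggg
*Syvn1* (chr19:6046527-6046556, plus strand): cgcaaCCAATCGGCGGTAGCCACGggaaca
*Canx* (chr11:50325794-50325823, minus strand): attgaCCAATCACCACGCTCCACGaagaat
*Pdia6* (chr12:17266486-17266515, plus strand): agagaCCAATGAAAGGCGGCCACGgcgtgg
The others were *Hsp90b1* (2 matches), *Calr*, *Dnajc3* and *Creld2*. Of the 8 genes, 2 fell (25%, against 18.6% of all genes tested), 0 rose (against 11.9%) by limma and 6 did not pass the test. Their log2 fold-changes lay between -0.62 and 0.04, and the median was -0.33, against -0.094 over all genes tested. The CAF-vec samples themselves differed by a median of 0.36 on the log2 scale over these genes, and 7 of the 8 were higher in CAF-vec 1 than in CAF-vec 2. Over all 36 genes that median was 0.24, and 24 were higher in CAF-vec 1. The related ERSE-II, ATTGG and CCACG with 1 base between them, was found in *Dnajb11* and *Herpud1* (0.0444% of genes), and the XBP1 element TGACGTGG in 0 of the 33 (0.714% of genes).

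Of the genes of ER-associated degradation, which returns misfolded proteins to the proteasome, *Syvn1* fell (25% of 4, against 18.6% of all genes tested) and *Herpud1*, *Edem1* and *Sel1l* did not pass the test. *Syvn1* (ENSMUSG00000024807, chromosome 19, 6046576 to 6053712) encodes HRD1, the ubiquitin ligase of the pathway. It was at 54.1 and 54.8 CPM in CAF-vec and 38.6, 33.7 and 33.9 CPM in CAF-200. The groups were far apart relative to their spread (54.4 ± 0.465 CPM, SD, n = 2, against 35.4 ± 2.78 CPM, SD, n = 3), with a log2 fold-change of -0.62 (SE 0.097, adjusted *p* = 0.00916, limma). The adjusted *p* was 0.057 without CAF-200 replicate 2 and 0.0599 without CAF-200 replicate 3. Its exons overlap those of *Mrpl49* on the opposite strand. *Sel1l*, the adaptor that holds HRD1, had the same log2 fold-change of -0.62 but was at 132 CPM in CAF-vec 1 and 68.9 CPM in CAF-vec 2, against 60.7, 65.6 and 60.0 CPM in CAF-200 (adjusted *p* = 0.128). *Herpud1*, a scaffold of the ligase complex, was at 46.6 and 58.2 CPM in CAF-vec and 39.7, 44.5 and 38.9 CPM in CAF-200, below both CAF-vec values (adjusted *p* = 0.0912, at a log2 fold-change of -0.34). *Edem1*, a lectin that marks glycoproteins for degradation, overlapped between the groups (log2 fold-change -0.12).

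Of the 4 stress targets of ATF4 and CHOP, 2 fell (50%, against 18.6% of all genes tested), 0 rose (against 11.9%) by limma and 2 did not pass the test, with 1 higher at an unadjusted *p* under 0.05. *Vldlr* (ENSMUSG00000024924, chromosome 19, 27216484 to 27254231), a lipoprotein receptor that is induced through PERK and ATF4, was at 20.5 and 14.9 CPM in CAF-vec and 7.63, 6.74 and 6.54 CPM in CAF-200. The highest CAF-200 value was far below the lower CAF-vec value, and its log2 fold-change of -1.27 (SE 0.161, adjusted *p* = 0.0057, limma) was the largest fall of the 36 genes. *Chac1* (chromosome 2, 119351229 to 119354381), which degrades glutathione, was at 14.7 and 15.7 CPM in CAF-vec and 9.70, 9.17 and 8.86 CPM in CAF-200. Both groups were narrow and apart (log2 fold-change -0.69, SE 0.0967, adjusted *p* = 0.00738, or 0.0508 without CAF-200 replicate 3). *Trib3*, a pseudokinase that dampens ATF4 signalling, was at 8.37 CPM in CAF-vec 1 and 4.22 CPM in CAF-vec 2, with 4.76, 4.81 and 4.59 CPM in CAF-200 between them (adjusted *p* = 0.398, at a log2 fold-change of -0.31). *Sesn2*, an inhibitor of mTORC1 signalling, was at 11.7 and 13.6 CPM in CAF-vec and 15.3, 16.1 and 16.3 CPM in CAF-200. Its CAF-200 values were above both CAF-vec values, and its log2 fold-change of 0.32 missed the threshold as deposited (adjusted *p* = 0.0623) and passed it after quantile normalization or centring.

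Of the 8 enzymes of amino acid synthesis, 2 rose (25%, against 11.9% of all genes tested), 1 fell (12.5%, against 18.6%) and 5 did not pass the test. *Mthfd2* (ENSMUSG00000005667, chromosome 6, 83305691 to 83325908), an enzyme of mitochondrial folate metabolism, was at 38.1 and 55.2 CPM in CAF-vec and 81.4, 78.7 and 84.8 CPM in CAF-200. Every CAF-200 sample was above both CAF-vec samples (log2 fold-change 0.82, SE 0.164, adjusted *p* = 0.017, limma). *Asns*, which makes asparagine, was at 68.0 and 68.3 CPM in CAF-vec and 91.7, 81.6 and 87.1 CPM in CAF-200. The CAF-vec values were nearly equal and below all CAF-200 values (log2 fold-change 0.35, SE 0.0889, adjusted *p* = 0.0351). *Aldh18a1*, the first enzyme of proline synthesis, was at 54.6 and 49.4 CPM in CAF-vec and 40.4, 38.5 and 40.3 CPM in CAF-200, lower in each (log2 fold-change -0.38, SE 0.0884, adjusted *p* = 0.0255). With any CAF-200 sample left out, the adjusted *p* was 0.0675 to 0.082 for *Mthfd2*, 0.0964 to 0.154 for *Asns* and 0.105 to 0.123 for *Aldh18a1*.

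*Pycr1*, which completes proline synthesis, overlapped between the groups (log2 fold-change -0.06, 95% interval -0.32 to 0.20). The serine pathway enzymes *Phgdh*, *Psat1* and *Psph* also overlapped, with CAF-vec 1 above all CAF-200 values and CAF-vec 2 below or among them. *Phgdh* was at 270.3 and 166 CPM in CAF-vec and 214, 187 and 204 CPM in CAF-200, and its log2 fold-change of -0.07 was -0.43 against CAF-vec 1 and 0.28 against CAF-vec 2. *Psat1* was at 416 and 251 CPM in CAF-vec and 278, 272 and 304 CPM in CAF-200. *Psph* was at 42.4 and 25.4 CPM in CAF-vec and 26.2, 24.7 and 25.7 CPM in CAF-200. *Shmt2*, which passes serine carbon to folate in mitochondria, was at 177 and 154 CPM in CAF-vec and 201, 181 and 201 CPM in CAF-200, and its log2 fold-change of 0.23 did not pass the test as deposited (adjusted *p* = 0.145) but did after quantile normalization or centring.

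**Figure D3:**
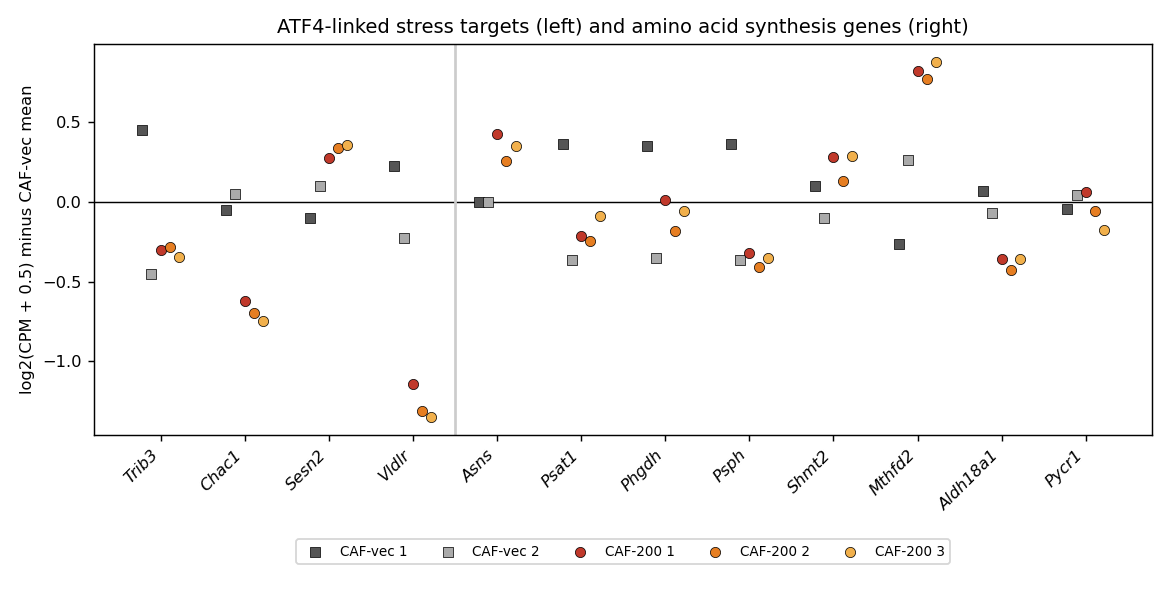
Each sample's log2(CPM + 0.5) minus the CAF-vec mean (y axis) for the 4 stress targets and the 8 amino acid synthesis genes (x axis), with CAF-vec samples as squares and CAF-200 samples as circles. *Vldlr* and *Chac1* lie below and *Mthfd2* and *Asns* above both CAF-vec samples in all 3 CAF-200 samples, while *Psat1*, *Phgdh* and *Psph* show CAF-vec 1 above CAF-vec 2 with CAF-200 between or near the lower sample.

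ATF4 binds a composite element, here searched as TGATGNAA on both strands of the same promoters. It was found in 6 of the 33 members with a promoter and in 4.51% of all genes. The windows are shown for the 3 of these genes that passed the test, on the strand of the gene and with the match in capitals. Those of *Chac1* and *Vldlr* read TTGCATCA, the reverse complement of the motif.
*Chac1* (chr2:119351038-119351067, plus strand): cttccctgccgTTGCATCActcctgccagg
*Vldlr* (chr19:27216809-27216838, plus strand): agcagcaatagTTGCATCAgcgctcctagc
*Asns* (chr6:7693214-7693243, minus strand): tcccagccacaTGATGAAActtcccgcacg
The other matches were in *Herpud1*, *Trib3* and *Pycr1*. Of the 6 genes, *Chac1* and *Vldlr* fell (33.3%, against 18.6% of all genes tested), *Asns* rose (16.7%, against 11.9%) and 3 did not pass the test. A match is a description of the window and not evidence of binding.

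Matches to the miR-200 seeds were counted in the longest annotated 3′-UTR of each gene (GENCODE M21). CAGTATT was found in 6 of the 36 genes, against 16.5% of 12098 tested genes with a 3′-UTR, and CAGTGTT in 7, against 22%. Together 12 genes held either, against 31.8% of those genes. Among the 9 genes that fell, *Syvn1* and *Vldlr* held CAGTATT, and of the 4 that rose, *Dnajb9* and *Mthfd2* held CAGTGTT. Their sites are printed 5′ to 3′ on the transcript strand with the match in capitals.
*Syvn1*, position 360 of 1055 (chr19:6053007-6053033, plus strand): cagtgccgaaCAGTATTagcttctgtt
*Vldlr*, position 241 of 5091 (chr19:27249371-27249397, plus strand): agcccctagaCAGTATTgccatctctg
*Dnajb9*, position 1064 of 1395 (chr12:44205874-44205900, minus strand): acctgatcttCAGTGTTgtcattttat
*Mthfd2*, position 828 of 1025 (chr6:83306583-83306609, minus strand): aagaggaatgCAGTGTTtttaatttat
The 12 genes with a match had a median log2 fold-change of -0.12 and the 24 without one had -0.24, against -0.094 over all genes tested. *Xbp1*, *Eif2ak3*, *Ddit3*, *Hspa5* and *Chac1* held neither match.

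Further genes of the pathway were taken from lists of known function, 157 of which were expressed highly enough to be tested. Of these, 23 fell (14.6%) and 19 rose (12.1%), and these shares and the list counts that follow stand beside 18.6% lower and 11.9% higher over all genes tested. Of 17 other genes of ER-associated degradation, 7 fell (41.2%, against 18.6%) and 0 rose (against 11.9%) by limma, or 9 were lower and 0 higher at an unadjusted *p* under 0.05. At its head was *Os9*, a lectin that brings glycoproteins to HRD1, which was at 203 and 182 CPM in CAF-vec and 127, 129.7 and 124 CPM in CAF-200. All of its CAF-200 values were lower (adjusted *p* = 0.00872, at a log2 fold-change of -0.59). *Ube2g2*, a ubiquitin-conjugating enzyme, stood at a log2 fold-change of -0.52 (adjusted *p* = 0.0447), and *Derl1*, *Edem3*, *Selenos*, *Fam8a1* and *Herpud2* were the others that fell (log2 fold-changes -0.46 to -0.35). The call of *Os9* was lost with any CAF-200 sample left out (adjusted *p* = 0.0538 to 0.0611), and that of *Ube2g2* as well (0.134 to 0.147) and also without a filter (0.0639), after centring (0.0542) and without the variance trend (0.0525). With the 4 genes above, of which 1 fell (25%), 8 of 21 fell (38.1%, against 18.6%) and the median log2 fold-change was -0.35, against -0.094 over all genes tested. Leaving out any CAF-200 sample took *Os9* and *Ube2g2* out of those 8. Some of these fits also took out *Syvn1* (adjusted *p* = 0.057 and 0.0599, limma). The calls of the other genes among the 8 were not followed with samples left out.

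Among 7 genes of the ATF6 family and its proteases, 3 fell (42.9%, against 18.6% of all genes tested) and 0 rose (against 11.9%) by limma, with 4 lower and 0 higher at an unadjusted *p* under 0.05. *Atf6b*, the homologue of *Atf6*, was at 58.5 and 56.3 CPM in CAF-vec and 35.0, 35.2 and 32.1 CPM in CAF-200. Its groups were apart by far more than their spread (adjusted *p* = 0.00482, limma, at a log2 fold-change of -0.74), whereas those of *Atf6* overlapped. *Creb3* and *Creb3l2*, which are released from the membrane by the same proteases, had log2 fold-changes of -0.59 and -0.34, and the call of *Creb3* was lost with any CAF-200 sample left out (adjusted *p* = 0.0592 to 0.0659). Of the 6 genes of eIF2 phosphorylation, the kinase genes *Eif2ak4* (GCN2, which senses uncharged tRNA; log2 fold-change -0.72, adjusted *p* = 0.0157) and *Eif2ak1* (-0.35) fell and *Eif2s1*, the phosphorylated subunit, rose (0.52). With any CAF-200 sample left out, the adjusted *p* of *Eif2ak4* was 0.0542 to 0.0782 and that of *Eif2s1* 0.0613 to 0.0768.

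Among 15 other stress targets of ATF4, *Atf3* fell, from 5.39 and 3.46 CPM to 1.97, 1.51 and 1.83 CPM (adjusted *p* = 0.015, limma, at a log2 fold-change of -1.10), and *Vegfa* and *Cth* rose. Of 10 amino acid transporters, 2 fell and 1 rose. *Slc38a2*, which imports neutral amino acids, fell from 371 and 387 CPM to 229, 240.4 and 216 CPM (adjusted *p* = 0.00604, at a log2 fold-change of -0.73). Of 15 other amino acid enzymes, 3 rose and 2 fell, and among them *Pck2*, a mitochondrial enzyme induced by ATF4, had a log2 fold-change of -0.93 and *Glul*, glutamine synthetase, one of 0.81. Of 21 ER folding enzymes outside the main list, 4 rose (19%) and 2 fell (9.52%). The prolyl isomerase *Fkbp7* stood at a log2 fold-change of 0.85 (adjusted *p* = 0.00589), and the calnexin homologue *Clgn* had one of 0.55 at under 1 CPM. Of 22 genes of ER translocation, *Sec61g* and *Srprb* rose (9.09%, against 11.9% of all genes tested) and 0 fell (against 18.6%) by limma, with 6 higher and 3 lower at an unadjusted *p* under 0.05. With any CAF-200 sample left out, the adjusted *p* was 0.0903 to 0.137 for *Sec61g*, 0.126 to 0.138 for *Srprb*, 0.0517 to 0.0669 for *Atf3*, 0.0489 to 0.0623 for *Vegfa*, 0.0659 to 0.0857 for *Pck2* and 0.0681 to 0.0873 for *Glul*. The call of *Clgn* was lost with any of the 5 samples left out (0.0765 to 0.154), with a pseudocount of 1 CPM (0.0558) and after quantile normalization (0.099).

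**Figure D4:**
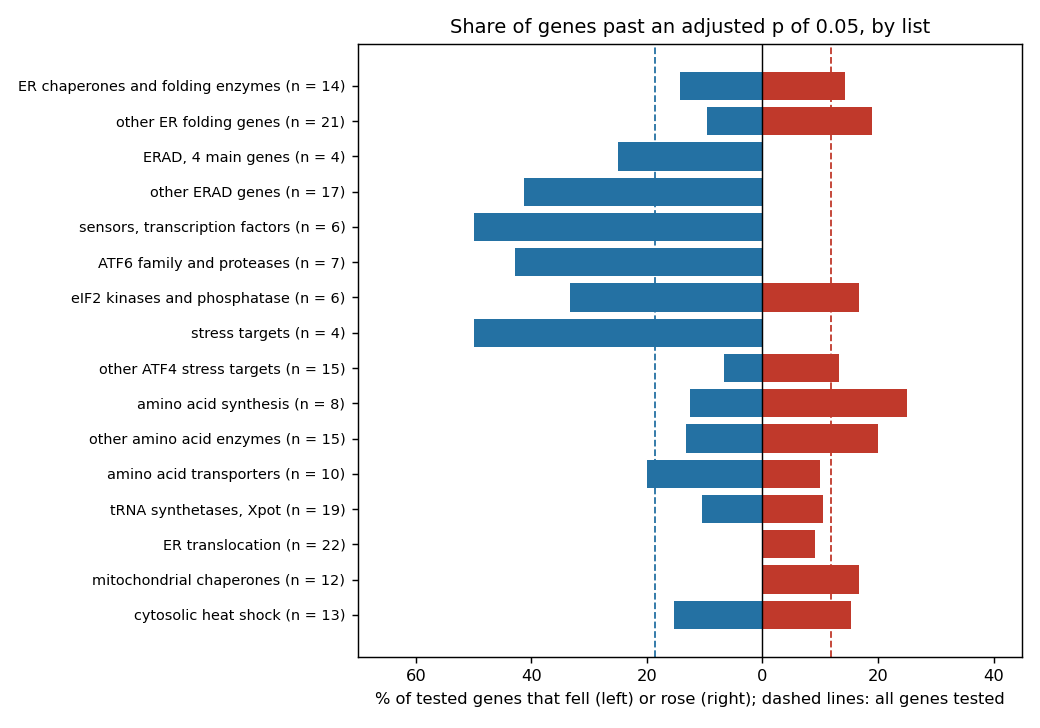
Share of tested genes that fell (blue, left) or rose (red, right) at an adjusted *p* under 0.05 (x axis, %), for the 5 roles of the main set and 11 lists of further genes (y axis, with the number tested). Dashed lines mark the 18.6% lower and 11.9% higher over all genes tested, and the degradation lists, the sensors, the ATF6 family and the 4 stress targets have no bar on the right.

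The CAF-vec samples differed from each other in most of the chaperones and the serine enzymes, and in the further genes of the pathway as well. Of the 36 genes, 24 were higher in CAF-vec 1 than in CAF-vec 2, and for 18 the gap between these samples exceeded the log2 fold-change. For 12 genes the CAF-200 mean was on opposite sides of CAF-vec 1 and CAF-vec 2. Of the 157 further genes tested, 105 were higher in CAF-vec 1, 75 had such a gap and 40 had such opposite sides. The pattern is therefore not particular to the 36 genes. Among the 14 chaperones and folding enzymes, 12 were higher in CAF-vec 1, by a median of 0.32 on the log2 scale over the 14. That median was 0.087 over the 157 further genes. The collagen genes *Col1a1* and *Col1a2* showed the same order, at 4613 and 5185 CPM in CAF-vec 1 and 2003 and 2567 CPM in CAF-vec 2, against 1543 to 1719 and 2048 to 2284 CPM in CAF-200. The part of that difference in the results was not tested. For each of the 13 genes that rose or fell, the CAF-200 mean was on the same side of both CAF-vec samples, at a distance of 0.26 (*Pdia4*, from CAF-vec 1) or more on the log2 scale from the nearer one. A gene with its CAF-200 mean between the CAF-vec samples could hardly pass the test, so nothing is read from this.

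**Figure D5:**
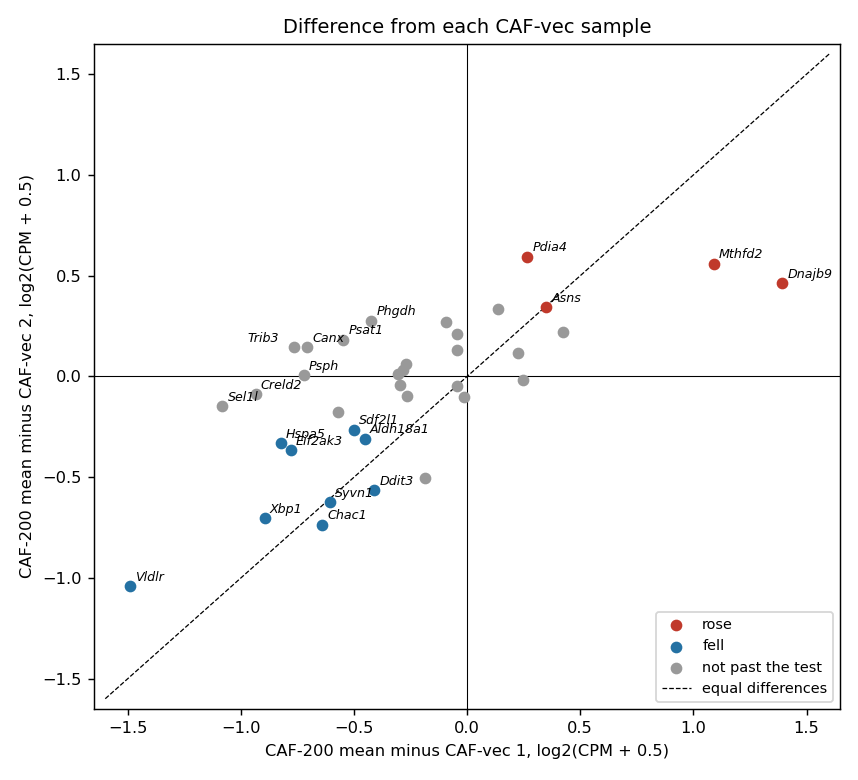
Difference of the CAF-200 mean from CAF-vec 1 (x axis) and from CAF-vec 2 (y axis), in log2(CPM + 0.5), for the 36 genes, coloured by the call, with a dashed line where both are equal. The 9 genes that fell lie in the lower left and the 4 that rose in the upper right, while 11 genes not past the test lie in the upper left, lower than CAF-vec 1 and higher than CAF-vec 2.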

How the data were processed

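Poly(A) RNA from 5 samples of cultured murine lung CAFs was sequenced with a stranded paired-end kit. The submitters' processing notes name FastQC, cutadapt, Trimmomatic, STAR, RSEM and edgeR, with GRCm38 and mm10. The authors deposited 1 table of CPM per gene, scaled to sums of 999956 to 1000111 per sample, and 0 further sample columns were left unused. Values close to whole reads could not be recovered (10.2% to 35.5% of values within 0.02 of a whole number), so no count model was run and depth is unknown. Values between 0 and 0.005 CPM were present for 816 to 1108 genes in the CAF-200 columns and for 0 genes in the CAF-vec columns. The CAF-200 columns may therefore have been adjusted together, and the part of this in their small spread was not tested.

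Groups were taken from the labels. CAF-200 was compared with CAF-vec over all 5 samples with limma 3.58.1 (R 4.3.3, variance trend) on log2(CPM + 0.5), which understates changes of low genes, with Benjamini-Hochberg adjustment over 12175 genes. On simulated data of this size, 89.5% of genes changed by 2 on the log2 scale and 58% of those changed by 1 were recovered, with at most 9 false calls in a run. The simulation gave both groups the same SD per gene, whereas here the CAF-vec samples differed more than the CAF-200 samples. These rates may therefore not hold for the real samples. Sequence searches used Python 3.11.15 on RefSeq promoters, RefSeq miRNAs and GENCODE M21 transcripts.

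The members and lists were chosen with earlier results of these data known. All members could be named, as could genes of the other lists that passed the study's thresholds and the 2 with the largest change past an adjusted *p* of 0.05. Where 5 or fewer others passed they were named after their values were seen. Alternatives were other pseudocounts, filters, scalings, variance models and thresholds, a replicate block and each sample left out.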

Additional observations from a re-analysis of the deposited data

How the results depend on the processing

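As deposited, 4 of the 36 genes rose and 9 fell. The number that rose was 2 without a filter, 2 without the variance trend, 0 at an adjusted *p* under 0.01 (limma; 5 higher at an unadjusted *p* under 0.05) and 0 to 8 with 1 sample left out. The number that fell was 4 at an adjusted *p* under 0.01 and 2 to 22 with 1 sample left out. At the study's thresholds, 0 rose and 1 fell, with 0 falling without a filter and 0 to 2 in either direction with 1 sample left out. Over all genes tested, 1446 rose and 2265 fell, with 542 and 678 at an adjusted *p* under 0.01, and with ranges of 435 to 3039 and 485 to 4760 with 1 sample left out. The highest of these counts was without CAF-vec replicate 1 for the genes of the 36 that rose (8, against 7 without CAF-vec replicate 2), and without CAF-vec replicate 2 for the genes of the 36 that fell and for both counts over all genes, and in both cases the lone CAF-vec sample is assumed to vary like the CAF-200 samples. *Phgdh* reversed without CAF-vec replicate 1 (log2 fold-change 0.28, adjusted *p* = 0.0294) and was -0.43 without CAF-vec replicate 2. The cause of these changes was not tested. Lower genes were 61% of all calls as deposited, 51.5% after quantile normalization and 48.4% after centring, where the median of all genes moved from -0.094 to -0.016 and 0.0027. Deviations of same-numbered samples correlated at 0.25 and 0.13, and CAF-vec 2 correlated at 0.12 with CAF-200 replicate 3, which has another number. With 2 CAF-vec samples, their deviations are exact opposites, so these correlations cannot show whether the numbers mark pairs. No label ties the numbers to a shared batch, and the samples were not treated as paired in the main fit. With a replicate block, 1 gene rose (*Mthfd2*) and 2 fell (*Xbp1*, *Vldlr*), the calls of *Os9* (adjusted *p* = 0.0747), *Ube2g2* (0.0976), *Sec61g* (0.191), *Srprb* (0.194), *Creb3* (0.065), *Slc38a2* (0.0561), *Glul* (0.0524), *Clgn* (0.131), *Eif2s1* (0.078), *Vegfa* (0.0834), *Hspd1* (0.127), *Hspe1* (0.159), *Kars* (0.114) and *Eprs* (0.101) were lost, 0 members fell at the study's thresholds, and over all genes 630 rose and 852 fell. Of the 13 called genes among the 36, 0 changed sign in the 14 alternatives, while 14 of all 36 did in some alternative. The 13 genes were selected by the test on these same samples, which largely fixes their sign, so nothing is read from this. The planned edgeR and DESeq2 fits were not run, since whole counts could not be recovered.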

Other observations

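Of 13 cytosolic heat shock genes, 2 rose and 2 fell (15.4% each, against 11.9% and 18.6% of all genes tested). *Hspb1*, a small heat shock protein, was at 0.303 and 0.389 CPM in CAF-vec and 6.98, 5.26 and 4.86 CPM in CAF-200, far higher in all 3 CAF-200 samples (adjusted *p* = 0.0015, limma, at a log2 fold-change of 2.86). *Hspa1b*, an inducible HSP70 gene, was at 74.5 and 52.2 CPM in CAF-vec and 26.2, 24.9 and 22.0 CPM in CAF-200 (adjusted *p* = 0.00573, at a log2 fold-change of -1.34). *Hspa1a* fell as well (log2 fold-change -0.83), and because it is a near-identical copy of *Hspa1b*, the division of reads between them is uncertain. The HSP40 gene *Dnajb1* rose (0.59). Of 12 mitochondrial chaperones and proteases, the partners *Hspd1* (HSP60, log2 fold-change 0.55) and *Hspe1* (HSP10, 0.44) rose (16.7%, against 11.9% of all genes tested) and 0 fell (against 18.6%) by limma, also at an unadjusted *p* under 0.05. Both calls were lost with any CAF-200 sample left out (adjusted *p* = 0.0719 to 0.0894 and 0.0952 to 0.0992).

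Of a list of 19 genes, 18 cytosolic tRNA synthetases and the tRNA exportin *Xpot*, *Kars* (log2 fold-change 0.47, adjusted *p* = 0.012, limma) and *Rars* (0.38) rose, *Eprs* (-0.48, adjusted *p* = 0.0252) and *Sars* (-0.40) fell, and 15 did not pass the test (10.5% in each direction, against 11.9% higher and 18.6% lower over all genes tested). With any CAF-200 sample left out, the adjusted *p* was 0.0678 to 0.0778 for *Kars* and 0.0908 to 0.113 for *Eprs*. In this list 16 of 19 genes were higher in CAF-vec 1 than in CAF-vec 2, against 105 of the 157 further genes tested.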
